A study of Mus musculus with 24 samples.

Results

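Natural killer (NK) cells that carried CD27 and lacked CD69 were compared with NK cells that carried CD11b and lacked CD69, both taken from B16F10 tumours. B16F10 is a mouse melanoma cell line, here grown under the flank skin of wild-type female B6 mice and collected on day 14. Members were chosen by the sort written in each label, which gave 6 CD27+CD69- and 6 CD11b+CD69- libraries, 12 of the 24 libraries in the series. Each library was made from 100 sorted cells by full-length amplification of polyadenylated RNA. The other 12 libraries hold the CD69+ cells of the same CD27 and CD11b gates and serve here as a reference. No treatment or genotype separates the populations, and the labels do not say whether cells positive for both CD11b and CD27 fell in either gate. Nor do they say which libraries came from separate mice, so p-values measure the spread between these libraries, which may be partly technical. The title of the series asks about FLT3LG made by NK cells under IL-2 and IL-15 signalling, and the comparison described here gives the maturation side of the cells that lack CD69.

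As background, mouse NK cells are ordered by CD27, a receptor of the TNF receptor family found on less mature cells, and by CD11b, an integrin alpha chain encoded by Itgam that is gained on maturation. Maturation is known for the gain of granzyme B, KLRG1 and the egress receptor S1PR5 under the transcription factors T-bet, ZEB2 and BLIMP-1. Less mature cells, and the related innate lymphoid cells of group 1 (ILC1), are known for the IL-7 receptor and the transcription factor TCF-1. CD69 is a lectin that appears on activated lymphocytes and retains them in tissue.

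The CD11b+CD69- libraries held 2108899 to 2671533 counts and 11606 to 12046 detected genes, and the CD27+CD69- libraries held 1213914 to 2242850 counts and 13287 to 14540 detected genes. Levels are given below as CPM, counts scaled to a common library total with trimmed-mean (TMM) factors. A limit of 3 counts corresponded to 1.12 to 2.47 CPM, and it covers counting error only, since amplified reads without molecular identifiers are not independent molecules. The same holds for the intervals given with count ratios below. They come from counts pooled over the libraries of a population and leave out the spread between libraries. NK genes were present in all 12 libraries: the summed level of 19 NK identity genes was 40233 to 45698 CPM in CD11b+CD69- and 13843 to 24431 CPM in CD27+CD69- cells. The 19 include the cytotoxic genes Gzmb and Prf1, which take up a large part of that gap. Their medians were 9965 and 3823 CPM in CD11b+CD69- and 1150 and 629 CPM in CD27+CD69- cells. The sample label names the tumour's cell type, melanoma, and the CD11b+CD69- libraries were almost free of its genes, with 0 to 16.9 CPM over 11 melanoma genes and Tyr and Tyrp1 at 0 counts. The CD27+CD69- libraries held 17.5 to 11566 CPM of the same genes. Fibroblast genes differed further, with 15.7 to 43.1 CPM over 21 genes in CD11b+CD69- and 776 to 15205 CPM in CD27+CD69- libraries. In CD11b+CD69- cells 12 of these 21 genes had 0 counts, among them Dcn, Lum and Pdgfra. CD27+CD69- replicate 6 stood apart, with the highest melanoma sum and the lowest sum of 24 pan-leukocyte genes, 15315 CPM against 22985 to 26444 CPM in the other 5 and 31588 to 33168 CPM in CD11b+CD69- cells. In such pools, fewer cells of a type and less RNA per cell cannot be told apart, and how far the other cells' RNA lowers the share of every NK gene was not tested. For that reason genes with a mean of 10 CPM or more in the 12 CD69+ libraries, whose fibroblast sums were lower, were counted apart.

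**Figure D1:**
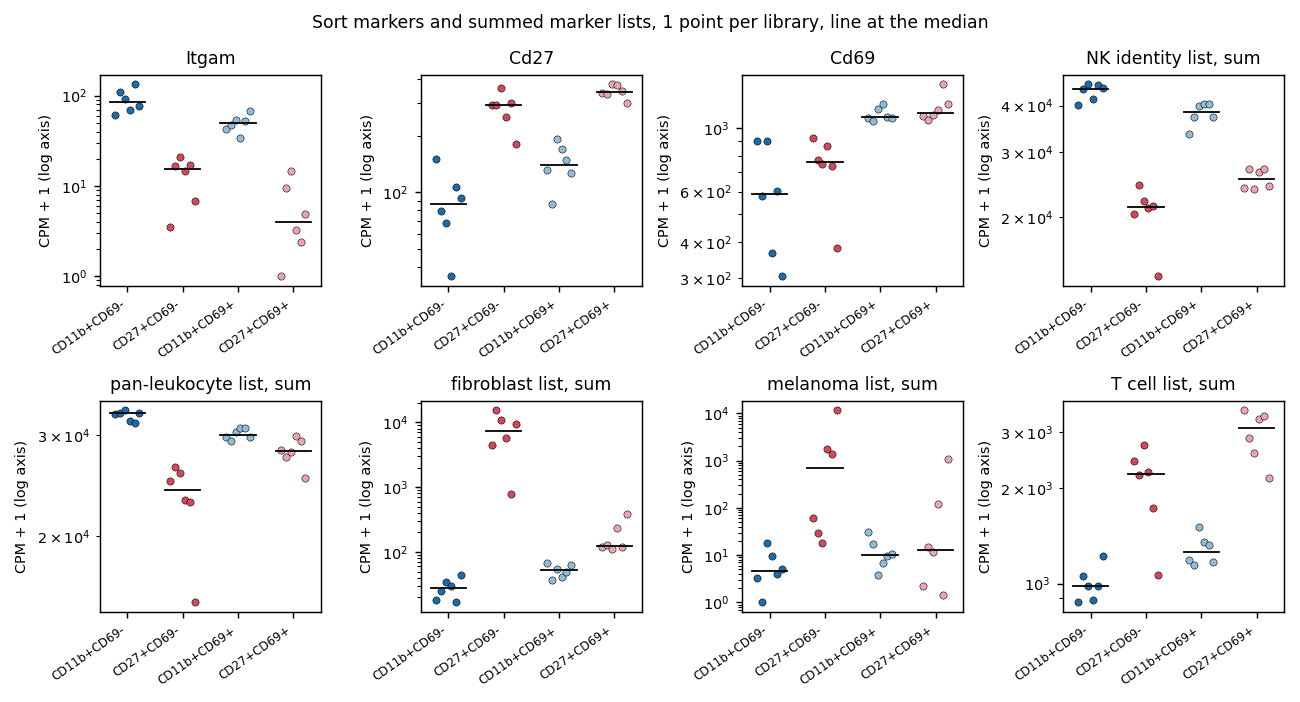
Levels of the 3 sort marker genes and summed levels of 5 marker lists in CPM plus 1 on a log axis, with 1 point per library for the 4 populations and a line at the median. Itgam and Cd27 separate CD11b+CD69- from CD27+CD69- libraries without overlap, and the fibroblast sums of the same libraries, 15.7 to 43.1 against 776 to 15205 CPM, do not overlap either.

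Among CD69- cells, CD27+ cells were lower in the genes of mature and cytotoxic NK cells and higher in those of immature NK cells, in interferon-induced genes and in CD3 chain genes. With edgeR's quasi-likelihood test over 10536 genes and a Benjamini-Hochberg adjusted p under 0.05, 786 genes were higher in CD27+CD69- cells (7.46% of genes tested) and 518 were lower (4.92%). The 2 populations did not overlap for 698 genes (6.62%), of which 630 were called. Among the 8092 genes with 10 CPM or more in CD69+ libraries the directions were even, with 501 higher (6.19%) and 507 lower (6.27%), and the median log2 difference of all 8092 was 0.01. Among the 2444 genes under that level, 285 were higher (11.7%) and only 11 were lower (0.45%), and 166 of the 285 had 0 counts in all 6 CD11b+CD69- libraries. A gene absent elsewhere enters the test only through the population where it is high, so this split is given as a description. Called rises were large and called falls were mostly modest: within the genes at 10 CPM or more, the median called rise was 1.21 and the median called fall was -0.84 on the log2 scale. Of the 501 rises in that group, 26 had a median under 10 CPM in the CD69+ libraries, so that their mean rested on a few libraries.

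Both counts depended on what was held constant between populations. When libraries were scaled to the 24 pan-leukocyte genes, the median difference of all genes moved up by 0.53, and 94.8% of the genes called at 10 CPM or more were higher in CD27+CD69- cells, against 49.7% with TMM and 64.1% with total counts. A term for the summed fibroblast level left 8 called genes, but that level did not overlap between the populations, so the term and the population cannot be told apart. Without the 3 CD27+CD69- libraries richest in fibroblast RNA (replicates 2, 3 and 6), 281 genes at 10 CPM or more were higher and 314 were lower. Directions below are those under TMM scaling, and a list's median is read against 0.05, the median of all genes tested.

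**Figure D2:**
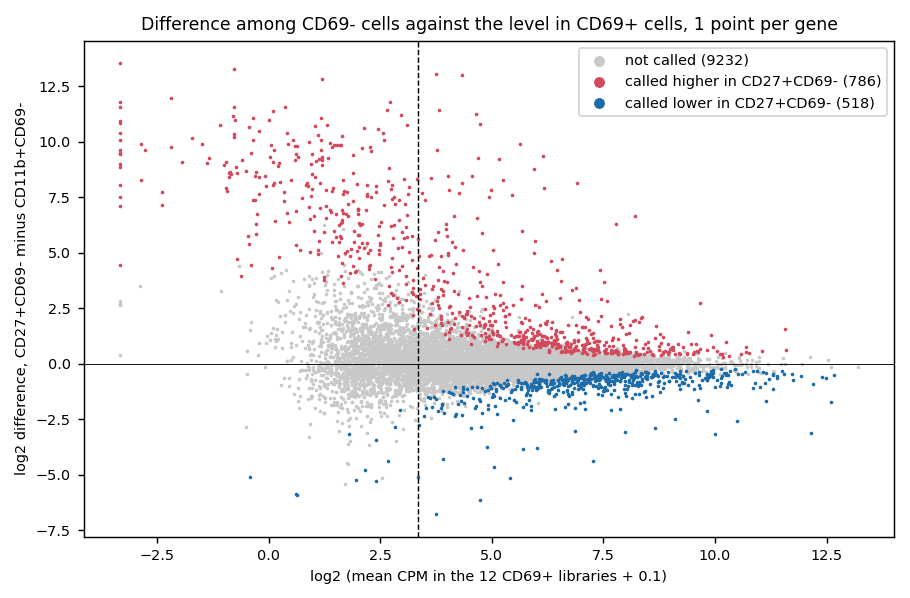
The log2 difference between CD27+CD69- and CD11b+CD69- cells (vertical axis) against the mean level in the 12 CD69+ libraries (horizontal axis, log2 of CPM plus 0.1), with 1 point per gene and a dashed line at 10 CPM. To the left of the line 285 genes were called higher and 11 lower, and to the right of it 501 were higher and 507 lower.

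The sort markers followed the labels. Itgam (GRCm38 chr7:128062640-128118491) lay at 59.8 to 133 CPM with a median of 83.3 in CD11b+CD69- cells and at 2.46 to 19.8 CPM with a median of 14.5 in CD27+CD69- cells. Cd27 (chr6:125232622-125237010) lay at 34.8 to 149 CPM, median 85.4, in CD11b+CD69- cells and at 179 to 355 CPM, median 289, in CD27+CD69- cells. Neither gene overlapped between the 2 populations, although Cd27 RNA was found in all 6 CD11b+ libraries. Itgam differed by -2.86 (SE 0.52, adjusted p = 0.000309) and Cd27 by 1.66 (SE 0.23, adjusted p = 1.04e-05). Cd69, the marker both gates exclude, had 304 to 901 CPM and 380 to 917 CPM and was not called (0.28, SE 0.20, adjusted p = 0.457), although under pan-leukocyte scaling it was (0.76, adjusted p = 0.00239). Flt3l, the gene for the dendritic cell growth factor in the series title, had 32.5 to 61.6 CPM in CD11b+CD69- and 14 to 75.9 CPM in CD27+CD69- cells. Its difference of -0.24 (SE 0.30) was not called (adjusted p = 0.705), and the ranges overlapped.

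Genes of mature NK cells were lower in CD27+CD69- cells, many by a wide margin. Of 18 tested genes on a list of mature NK markers, 14 fell and 0 rose, with a median of -1.78, and 14 were also lower under pan-leukocyte scaling. These falls include the sort marker Itgam, whose direction follows from the gates and is not a separate result. Klrg1, an inhibitory receptor of terminally mature cells, had 575 to 1043 CPM (median 753) in CD11b+CD69- cells and 10.7 to 69.5 CPM (median 35.1) in CD27+CD69- cells. Cma1, a mast cell type chymase that is also known from mature mouse NK cells, had 686 to 1171 CPM (median 826) and 13.2 to 38.3 CPM (median 22.2). S1pr5, a receptor that NK cells use to leave tissue, had 178 to 391 CPM (median 240) and 4.95 to 26.4 CPM (median 22.3). For these 3 genes the highest CD27+ library lay below the lowest CD11b+ library by several-fold. Their differences were -4.39 (SE 0.55) for Klrg1, -5.15 (SE 0.49) for Cma1 and -3.85 (SE 0.47) for S1pr5, with adjusted p-values of 5.49e-06, 1.04e-07 and 1.42e-06. Cx3cr1, the fractalkine receptor, was under 10 CPM in CD69+ cells and fell from 37.5 to 232 CPM to 0 to 11.8 CPM (-4.78, adjusted p = 0.000733, and -5.39 without CD27+CD69- replicate 2). The only tested member with a positive value was Cd226, an activating receptor, and it was not called. Ly6c2, a surface antigen of mature cells, had 838 to 1399 CPM and 346 to 1355 CPM (-0.38, adjusted p = 0.497).

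The list of falls at 10 CPM or more in CD69+ cells was led by the chemokine gene Ccl9 (-6.76, SE 1.03), which had 27.5 to 160 CPM in CD11b+CD69- cells and 0 counts in 5 of the 6 CD27+CD69- libraries, with 4.10 CPM in replicate 2. Without that library Ccl9 was at least 282-fold lower. Cym, the gene of the stomach protease chymosin, had 58.3 to 148 CPM against 0 to 7.39 CPM (-5.11, SE 0.78). Entpd1, which encodes the ATP-degrading enzyme CD39, had 149 to 287 CPM against 2.03 to 35.5 CPM (-3.80, SE 0.39, adjusted p = 1.22e-07). Cdc20b (-4.28), Khdc1b (-3.73) and the granzyme inhibitor gene Serpinb9b (-3.07) were also among the 12 largest falls, with Cdc20b at -4.94 without CD27+CD69- replicate 2 and Khdc1b at -4.33 without replicate 1. None of these 12 genes overlapped between the 2 CD69- populations. In the CD69+ cells 11 of the 12 fell as well, and Khdc1b was not called there (-1.82, adjusted p = 0.108).

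**Figure D3:**
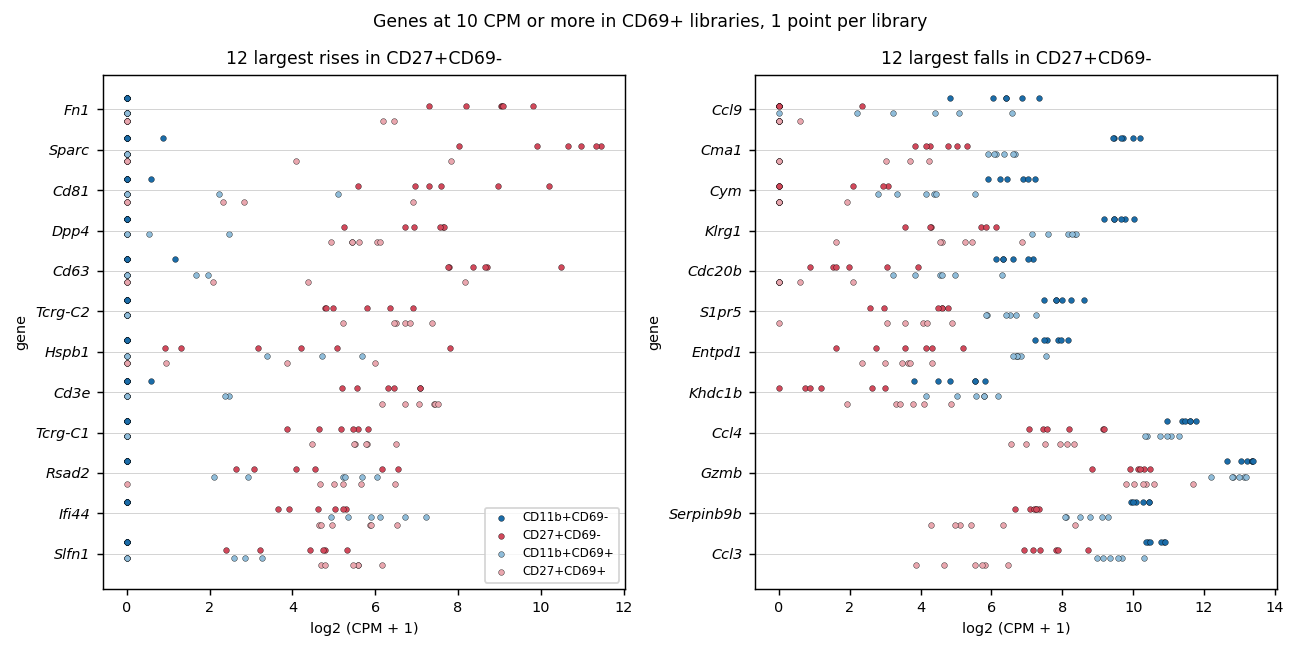
Levels as log2 of CPM plus 1 for the 12 largest rises (left) and the 12 largest falls (right) among genes at 10 CPM or more in CD69+ libraries, with 1 point per library for the 4 populations. In the left panel the CD11b+CD69- points sit at or near 0, and in the right panel the CD27+CD69- points sit below all CD11b+CD69- points.

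The cytotoxic machinery fell in part. Of 17 tested granule and death ligand genes 8 fell and 2 rose, with a median of -0.46 that became 0.12 under pan-leukocyte scaling, where 8 were lower and 4 higher. Gzmb, which encodes the caspase-cleaving granzyme B, had 6444 to 10720 CPM (median 9965) in CD11b+CD69- cells and 452 to 1418 CPM (median 1150) in CD27+CD69- cells. Prf1, which encodes the pore former perforin, had 3157 to 4575 CPM (median 3823) and 302 to 944 CPM (median 629). Gzma, the most abundant granzyme gene here, had 11670 to 13728 CPM (median 12040) and 2622 to 4564 CPM (median 4117). The populations were separate for all 3. Gzmb differed by -3.13 (SE 0.29), Prf1 by -2.60 (SE 0.19) and Gzma by -1.70 (SE 0.11), with adjusted p-values of 8.04e-08, 9.08e-10 and 4.84e-11. Serpinb9, an inhibitor that protects the cell from its own granzyme B, fell by 1.15 on the log2 scale. Fasl, the death ligand, fell by 1.06 (SE 0.12, adjusted p = 6.52e-07). The 2 rises, against 7.46% of all genes tested that rose, were Tnfsf10, which encodes the death ligand TRAIL, and Lamp1, a lysosomal membrane protein gene. In CD11b+CD69+ and CD27+CD69+ cells the medians were 15.4 and 41.2 CPM for Tnfsf10 and 242 and 257 CPM for Lamp1. Between these CD69+ populations 0 of the 17 genes were called higher in CD27+ cells and 6 lower. The part of other cells' RNA in the 2 rises was not tested.

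Chemokines that attract myeloid cells and T cells were lower in CD27+CD69- cells. Ccl4 had 1998 to 3518 CPM (median 2962) in CD11b+CD69- cells and 132 to 572 CPM (median 239) in CD27+CD69- cells. Ccl3 had 1314 to 1912 CPM (median 1593) and 120 to 421 CPM (median 194). Ccl5 had 5684 to 6393 CPM (median 5916) and 1165 to 2294 CPM (median 1988). Each gene was separate between populations, with differences of -3.15 (SE 0.35), -2.88 (SE 0.33) and -1.67 (SE 0.13). Ifng, the interferon gamma gene, fell by 1.32 (SE 0.21, adjusted p = 6.15e-05). In the other direction, Ltb, which encodes the lymphotoxin beta chain, had 2.46 to 31.6 CPM against 76.7 to 457 CPM (3.68, SE 0.43, adjusted p = 6.72e-07). Xcl1, the ligand of the dendritic cell receptor XCR1, rose by 0.88 (SE 0.24, adjusted p = 0.0129) with overlapping ranges of 74.9 to 260 and 150 to 383 CPM, and was not called with the 2 populations fitted alone (adjusted p = 0.0558). In all, 6 of 14 tested cytokine and chemokine genes fell and 2 rose, with a median of -0.41 that became 0.08 under pan-leukocyte scaling, with 6 lower and 3 higher.

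Transcription factors split by maturation stage in part, and many were not called. Of 16 tested factors of NK maturation 8 fell and 0 rose, with a median of -0.49 (0.00 under pan-leukocyte scaling, with 6 lower and 1 higher). Irf8, an interferon regulatory factor of NK expansion, had 1898 to 2393 CPM (median 2134) in CD11b+CD69- cells and 284 to 675 CPM (median 494) in CD27+CD69- cells. Klf2, a factor that maintains circulation and S1P receptors, had 733 to 830 CPM (median 753) and 176 to 364 CPM (median 263). Zeb2, a repressor needed for terminal maturation, had 129 to 225 CPM (median 174) and 20.6 to 48.7 CPM (median 27.0). These 3 did not overlap, with differences of -2.12 (SE 0.16), -1.53 (SE 0.14) and -2.54 (SE 0.44). Id2 (-1.07), Prdm1, which encodes BLIMP-1 (-1.85), and Tbx21, which encodes T-bet (-1.14, SE 0.24, adjusted p = 0.00143), fell too. Tbx21 was the least even of them, with 408 to 577 CPM in CD11b+CD69- and 71.7 to 462 CPM in CD27+CD69- cells.

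Of 13 tested factors of immature NK and innate lymphoid cells 3 rose and 1 fell, with a median of 0.73. Of the 10 at 10 CPM or more in CD69+ cells 2 rose and 1 fell, with a median of 0.60. Under pan-leukocyte scaling 7 of the 13 were higher and 0 lower, with a median of 1.24. Tcf7, which encodes TCF-1, had 19.7 to 168 CPM (median 70.0) in CD11b+CD69- and 189 to 385 CPM (median 286) in CD27+CD69- cells. Ikzf2, which encodes Helios, had 7.38 to 17.3 CPM (median 10.8) and 66.8 to 168 CPM (median 119). Both were separate between populations, with differences of 1.97 (SE 0.31, adjusted p = 6.52e-05) and 3.40 (SE 0.34, adjusted p = 9.65e-08). Id3, an inhibitor of E proteins, rose by 3.19 (adjusted p = 0.0172), a call lost with a replicate block (adjusted p = 0.0681). It was the rise under 10 CPM in CD69+ cells. Its medians were 3.78 CPM in CD11b+CD69+ and 7.79 CPM in CD27+CD69+ cells, against 59.4 CPM in CD27+CD69- cells. The part of other cells' RNA in this rise was not tested. Eomes, a T-box factor of NK identity that was placed on this list, fell by 0.55 (adjusted p = 0.0137), a call lost with the 2 CD69- populations fitted alone (adjusted p = 0.0553) and under pan-leukocyte scaling (adjusted p = 0.709).

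Genes of immature NK cells rose as a group: of 18 tested, 13 rose and 1 fell, with a median of 1.79. These rises include the sort marker Cd27, whose direction follows from the gates. Emb, which encodes the adhesion glycoprotein embigin, had 97.4 to 294 CPM (median 132) in CD11b+CD69- cells and 806 to 1273 CPM (median 1123) in CD27+CD69- cells. Il7r, the IL-7 receptor alpha chain gene, had 0 to 15.6 CPM (median 2.40) and 84.7 to 278 CPM (median 187). Gpr183, the receptor for oxysterols that position lymphocytes, had 1.48 to 24.2 CPM (median 9.35) and 153 to 283 CPM (median 244). None of the 3 overlapped, and their differences were 2.74 (SE 0.21), 5.01 (SE 0.85) and 4.23 (SE 0.42), with adjusted p-values of 9.08e-10, 0.00024 and 7.52e-08. Il7r was 5.61 without CD11b+CD69- replicate 3. Kit, the stem cell factor receptor gene, rose by 2.58 (adjusted p = 0.0153), but it was not called by limma-voom (adjusted p = 0.111). The member that fell was Itga2, which encodes CD49b of the DX5 epitope (108 to 207 against 31.3 to 52.8 CPM, -1.70, SE 0.25). Of 16 tested genes of ILC1 and tissue residency 9 rose and 3 fell, with a median of 1.45. The tested members Itga1 (0.65, adjusted p = 0.392), Itgae (-0.15, adjusted p = 0.966), Cd200r1 (1.34, adjusted p = 0.482) and Rgs2 were not called. Zfp683 was too low to be tested. Cxcr6, a receptor of tissue-resident lymphocytes, had 0 to 10.4 CPM against 25.5 to 181 CPM (4.64, SE 0.97, and 5.51 without CD11b+CD69- replicate 2). Tmem176b, a membrane protein gene of unclear role, rose by 4.18 (4.92 without CD11b+CD69- replicate 3), with reads that could be shared with the overlapping Tmem176a. Entpd1 and Prdm1, on the same list, fell as given above, and so did Rgs1, a regulator of G protein signalling.

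**Figure D4:**
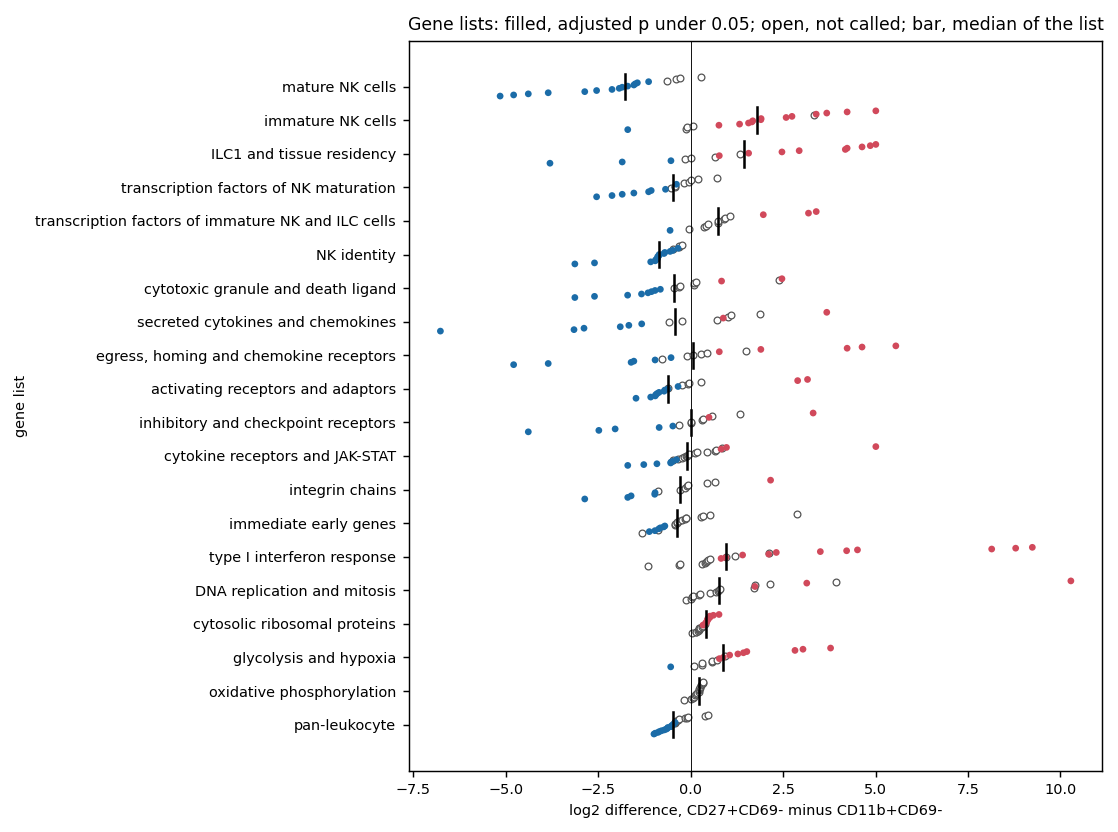
The log2 difference of each tested member of 20 gene lists, with filled points for called genes (red higher, blue lower), open points for genes not called and a bar at each list's median. Mature NK and NK identity genes lie to the left, with medians of -1.78 and -0.85, and immature NK and ILC1 genes lie to the right, with medians of 1.79 and 1.45.

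NK identity genes were lower, and so were many leukocyte genes in general. Of 19 NK identity genes 15 fell and 0 rose (median -0.85), while 14 of 24 pan-leukocyte genes fell and 0 rose (median -0.47). The 15 include Gzmb and Prf1, which are also counted with the granule genes above. Scaled to the pan-leukocyte genes, 9 of the 19 NK identity genes were lower, with a median of -0.35. Ncr1, the gene for the activating receptor NKp46, had 2337 to 2860 CPM (median 2591) in CD11b+CD69- cells and 1063 to 1496 CPM (median 1236) in CD27+CD69- cells. Klrb1c, which encodes NK1.1, had 1829 to 2002 CPM (median 1884) and 662 to 1320 CPM (median 974). Both were separate between populations, and their differences of -1.08 (SE 0.10) and -0.94 (SE 0.11) were -0.56 and -0.45 under pan-leukocyte scaling, still called (adjusted p = 0.000687 and 0.000192). Of 17 activating receptors and adaptors 10 fell and 2 rose, with a median of -0.61 (-0.13 under pan-leukocyte scaling, with 6 lower and 5 higher). Slamf7, a self-ligand receptor of the SLAM family, fell by 1.48 (SE 0.17), and Fcer1g, the signalling adaptor of NKp46 and CD16, fell by 0.85 (SE 0.10).

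Inhibitory receptors did not move together. Of 14 tested, 5 fell and 2 rose, with a median of 0.01, and under pan-leukocyte scaling 3 were lower and 4 higher, with a median of 0.51. The Ly49 genes Klra9 and Klra3 fell, Klra9 from 894 to 1259 CPM (median 1065) to 80.8 to 316 CPM (median 191) and Klra3 from 311 to 579 CPM (median 370) to 36.4 to 174 CPM (median 84.7). Their differences were -2.48 (SE 0.22) and -2.04 (SE 0.28), and the Ly49 genes are near-identical copies whose reads may be divided unevenly. Ctla4, an inhibitory receptor better known from T cells, had 0 to 16.9 CPM in CD11b+CD69- and 52.1 to 94.5 CPM in CD27+CD69- cells (3.31, SE 0.73, adjusted p = 0.00291).

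Of 24 tested cytokine receptor and JAK-STAT genes 7 fell and 3 rose, with a median of -0.11 that became 0.40 under pan-leukocyte scaling, with 9 higher and 2 lower. Il12rb2, a chain of the IL-12 receptor, had 195 to 364 CPM (median 259) against 43.7 to 131 CPM (median 82.0), and some reads may belong to the overlapping Serbp1. Il18rap, the accessory chain of the IL-18 receptor, had 756 to 985 CPM (median 842) against 294 to 452 CPM (median 358). These receptor genes did not overlap between populations (-1.70, SE 0.21, and -1.27, SE 0.14). Ifngr1, a chain of the interferon gamma receptor, fell by 0.53 with overlapping ranges and was not called under pan-leukocyte scaling (adjusted p = 0.686). Il2rb, the beta chain shared by the IL-2 and IL-15 receptors, had 1450 to 2089 CPM and 661 to 2423 CPM and was not called (-0.48, SE 0.17, adjusted p = 0.0748). Cish, a feedback inhibitor induced by STAT5, fell by 0.91 (SE 0.25, adjusted p = 0.0149), and this call was lost under pan-leukocyte scaling (adjusted p = 0.236).

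Several integrin chains were lower, and homing receptors were divided. Itgb2, the beta chain that pairs with CD11b, had 1678 to 2323 CPM (median 1866) in CD11b+CD69- cells and 314 to 1055 CPM (median 602) in CD27+CD69- cells (-1.61, SE 0.20, adjusted p = 1.46e-06). Itgal, the alpha chain of LFA-1, fell by 0.96 (SE 0.20). In all, 5 of 13 tested integrin chains fell, the sort marker Itgam among them, and 1 rose, a share of rises close to that of all genes. Their median of -0.29 became 0.18 under pan-leukocyte scaling, with 4 lower and 3 higher. Of 17 egress, homing and chemokine receptor genes 6 fell and 5 rose (median 0.05), and under pan-leukocyte scaling 5 were lower and 9 higher (median 0.54). The rises included Cxcr3, the receptor for interferon-induced chemokines, with 38.6 to 149 CPM against 209 to 489 CPM (1.90, SE 0.28, adjusted p = 2.17e-05). Ccr7, the receptor for entry into lymph nodes, had 0 to 5.65 CPM against 14.0 to 73.6 CPM (5.55, SE 1.11, adjusted p = 0.00116). Without CD11b+CD69- replicate 2, the library that held its counts there, Ccr7 was at least 178-fold higher. The egress receptor genes did not move together. S1pr5 fell as given above, while S1pr1 had 41.8 to 111 CPM in CD11b+CD69- and 123 to 399 CPM in CD27+CD69- cells. Its ranges did not overlap, but it was not called (1.51, adjusted p = 0.107).

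Several genes induced by type I interferon were at or near 0 in CD11b+CD69- cells and present in all CD27+CD69- libraries. Of 23 tested on this list, 11 rose and 0 fell, with a median of 0.95 (1.47 under pan-leukocyte scaling). Such genes are switched on through the interferon-stimulated response element in their promoters, whose core was searched as GAAA, 2 bases of any kind and GAAA again, or on the other strand TTTC, 2 bases and TTTC. Of the 11 genes that rose, 8 had a promoter in the RefSeq table for GRCm38.p6, and 5 of these held the core in the 250 bases before the start site, against 3.46% of the 27025 genes in the table. Of the 12 not called, 9 had a promoter and 5 held the core. The stretches are shown on the gene's own strand because they mark which of the rising genes carry the element, with the core in capitals. Overlapping cores run together in capitals.
Rsad2, chr12:26456533-26456602, minus strand: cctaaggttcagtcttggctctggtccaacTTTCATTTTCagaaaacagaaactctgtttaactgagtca
Ifit3, chr19:34583343-34583446, plus strand: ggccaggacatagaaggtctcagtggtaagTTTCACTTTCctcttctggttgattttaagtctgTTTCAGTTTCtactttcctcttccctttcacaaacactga
Ifi211, chr1:173913047-173913113, minus strand: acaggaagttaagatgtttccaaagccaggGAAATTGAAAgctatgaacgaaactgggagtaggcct
Bst2, chr8:71537557-71537632, minus strand: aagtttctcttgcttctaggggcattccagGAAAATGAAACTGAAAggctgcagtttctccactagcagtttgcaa
Oas1a, chr5:120907526-120907575, minus strand: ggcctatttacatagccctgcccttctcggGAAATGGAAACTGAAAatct
A match describes these letters only and shows no binding.

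Rsad2, which encodes the antiviral enzyme viperin, had 0 counts in all 6 CD11b+CD69- libraries and 5.20 to 93.2 CPM (median 19.1) in CD27+CD69- libraries, at least 149-fold higher over the group. Ifi44 had 0 counts against 11.5 to 38 CPM (median 27.7), at least 120-fold higher. Ifi211, of the family of DNA-binding Ifi200 proteins, had 0 counts against 7.28 to 29.8 CPM (median 15.1), at least 76.1-fold higher. All 6 CD27+ libraries therefore exceeded every CD11b+ library for these genes (adjusted p = 0.00017, 1.94e-07 and 3.56e-07). Oasl2, of the oligoadenylate synthetase family, had 0 to 8.68 CPM and 41.1 to 70.0 CPM (3.51, SE 0.57). Bst2, which encodes the virus-tethering protein tetherin, had 22.6 to 60.0 CPM and 90.0 to 148 CPM (1.41, SE 0.20, adjusted p = 2.08e-05). The CD69+ cells of both gates carried these genes, with overlapping ranges: Ifi44 had 29.4 to 149 CPM in CD11b+CD69+ and 23.8 to 91.9 CPM in CD27+CD69+ cells, and Bst2 had 120 to 227 and 128 to 183 CPM. None of the 23 genes was called between CD27+CD69+ and CD11b+CD69+ cells, where their median difference was 0.01. Ly6e, an interferon-induced surface protein on the immature NK list, had 501 to 1058 CPM in CD11b+CD69- and 1891 to 3263 CPM in CD27+CD69- cells (1.57, SE 0.14). In CD11b+CD69+ cells it had 2434 to 2945 CPM and in CD27+CD69+ cells 3059 to 3985 CPM (0.38, adjusted p = 0.22). CD11b+CD69- cells were thus the lowest of the 4 populations for Ifi44, Rsad2, Ifi211, Oasl2, Bst2 and Ly6e by their medians. This did not hold for the whole interferon list. Mx1, Irf7, Ifit2 and Stat2 had higher medians in CD11b+CD69- than in CD27+CD69- cells, and none of them was called. The medians of Mx1 were 29.7 and 16.3 CPM, and those of Irf7 were 323 and 263 CPM.

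CD3 and T cell receptor genes were higher in CD27+CD69- cells, as they were in CD27+CD69+ cells. Of 10 tested T cell genes 9 rose and 0 fell, with a median of 5.98, and 8 of the 10 were higher in CD27+ than in CD11b+ cells with CD69. Cd3g had 0 to 19.2 CPM (median 0) in CD11b+CD69- and 116 to 494 CPM (median 318) in CD27+CD69- cells. Cd3d had 0 to 10.3 CPM (median 2.35) and 92.4 to 397 CPM (median 286). Cd3e had 1 count in all CD11b+CD69- libraries and 35.5 to 135 CPM in CD27+CD69- libraries. The count ratio was 1178, with a 95% interval of 211 to 46581 for counting error only. The populations were separate for all 3 CD3 chain genes. Without CD11b+CD69- replicate 5, Cd3g and Cd3e had 0 counts in CD11b+CD69- cells and were at least 1218-fold and 334-fold higher. The gamma constant genes Tcrg-C1 and Tcrg-C2 had 0 counts in CD11b+CD69- cells and 13.7 to 55.3 and 26.4 to 119 CPM in CD27+CD69- cells, at least 169-fold and 262-fold higher. Trac, the alpha constant gene, had 19.5 to 51.6 CPM against 57.7 to 232 CPM (2.14, SE 0.33). Trbc1, a beta constant gene, had 726 to 955 and 626 to 1007 CPM and was not called (0.14, adjusted p = 0.437), while pan-leukocyte scaling gave 0.64 (adjusted p = 9.03e-06). Of the T cell lineage genes, Cd8a rose from 0 to 1.97 CPM to 0 to 22.3 CPM (median 8.98, adjusted p = 0.0188), and Cd5, Cd6 and Trat1 rose to medians of 10.3, 20.0 and 9.13 CPM (adjusted p = 0.00297, 0.00157 and 0.00186). Cd4 and Cd8b1 were not tested, with 0 counts in CD11b+CD69- cells and counts in 1 CD27+CD69- library each. The summed T cell list was 872 to 1222 CPM in CD11b+CD69- and 1062 to 2734 CPM in CD27+CD69- libraries, and the part of other cells in it was not tested. Dpp4, which encodes the peptidase CD26, had 0 counts against 37.2 to 201 CPM (median 155), at least 631-fold higher. Slfn1, of the Schlafen family of lymphocyte quiescence, had 0 counts against 4.28 to 38.8 CPM, at least 95.7-fold higher.

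The largest rises at 10 CPM or more included genes shared with fibroblasts. Fn1, which encodes fibronectin, had 0 counts against 157 to 898 CPM (median 532), at least 2219-fold higher. Sparc, a matrix protein gene, had 2 counts in all against 258 to 2807 CPM (median 1808), a count ratio of 11105 (95% interval 3074 to 91702). Both passed the level filter, with means of 13.3 and 20.2 CPM, through 2 CD27+CD69+ libraries and had 0 counts in the other 10. Sparc was not called by limma-voom (adjusted p = 0.0555). The tetraspanin genes Cd81 and Cd63 had 47.3 to 1183 CPM and 215 to 1446 CPM in CD27+CD69- cells against 1 and 3 counts in all, count ratios of 3984 (95% interval 714 to 157390) and 1972 (95% interval 674 to 9566). The intervals for Sparc, Cd81 and Cd63 cover counting error only. Without CD27+CD69- replicate 6 the ratio of Cd81 was 2531. Hspb1, a small heat shock protein gene, had 0 counts against 0.91 to 223 CPM (median 12.8), at least 159-fold higher but at least 56.0-fold without replicate 6, and its call was lost with no filter on low counts (adjusted p = 0.0542). The summed fibroblast level of the same libraries was 776 to 15205 CPM, and its part in these 5 differences was not tested. Below 10 CPM in CD69+ cells, the 6 largest rises were Serping1, Col3a1, Serpina3n, Serpinf1, Mpzl1 and Cd34. Of these Cd34, a surface sialomucin gene of stromal and stem cells, had 0 counts against 57.8 to 388 CPM (at least 952-fold higher), and Col3a1, a collagen chain gene, had 1 count against 0 to 2645 CPM. Serping1, Col3a1, Serpinf1 and Mpzl1 were not called by limma-voom (adjusted p = 0.246, 0.623, 0.0711 and 0.137). Of the 21 fibroblast genes 11 could be tested. Apart from Thy1, their medians were 0 in the other 3 populations, so they entered the test only through their level in CD27+CD69- cells, and their calls are not counted as a result. Thy1, which lymphocytes also express, rose by 1.60 (SE 0.28). The falls that qualified below 10 CPM were Tmtc1, Rhpn1, Cx3cr1 and Gp1bb; Tmtc1 and Rhpn1 were not called without replicates 2, 3 and 6 (adjusted p = 0.0846 and 0.0842).

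Ribosomal and glycolytic genes rose modestly. Of 24 cytosolic ribosomal protein genes 13 rose and 0 fell, with a median of 0.40 and values from 0.04 to 0.77. Rps19, a small subunit gene, had 309 to 342 CPM (median 331) in CD11b+CD69- and 406 to 651 CPM (median 568) in CD27+CD69- cells (0.77, SE 0.11, adjusted p = 2.44e-05). Rpl4 had 949 to 1146 CPM and 1102 to 1702 CPM (0.46, SE 0.09). Without the 3 libraries richest in fibroblast RNA, 4 of the 24 were called. Of 17 glycolysis and hypoxia genes 9 rose and 1 fell (median 0.88), and 0 were called between the CD69+ populations. Ldha, the lactate dehydrogenase gene, had 1166 to 1411 CPM against 1394 to 3637 CPM (0.78, SE 0.15), and Gapdh had 476 to 699 CPM against 611 to 3341 CPM (1.28, SE 0.27). The highest sum of this list, 18695 CPM, lay in replicate 6, which was also highest in melanoma RNA, and without replicate 6 the list had 9 rises, 1 fall and a median of 0.61. Bnip3, a mitophagy receptor gene, and Ero1l, an oxidoreductase gene, rose by 3.04 and 2.82 (2.39 and 2.10 without replicate 6) but were not called by limma-voom (adjusted p = 0.127 and 0.121). None of 16 oxidative phosphorylation genes was called (median 0.22), while 15 were higher under pan-leukocyte scaling.

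How many cell cycle genes were called depended on the scaling, and immediate early genes fell in part. Of 18 tested replication and mitosis genes 3 rose and 0 fell (median 0.76), against 7.46% of all genes tested that rose. Of the 13 at 10 CPM or more in CD69+ cells 2 rose, and 1 of the 18 rose without CD27+CD69- replicate 6. Under pan-leukocyte scaling 9 of the 18 were higher and 0 lower, with a median of 1.32, and 5 were higher with total counts. Ccnb2, a mitotic cyclin gene, had 0 counts against 14.9 to 163 CPM (median 66.5), at least 346-fold higher. It had 0 counts in CD11b+CD69+ cells and a median of 0 in CD27+CD69+ cells. It therefore entered the test only through its level in CD27+CD69- cells, and its call is given as a description. Tyms and Rrm2, which make deoxynucleotides, rose by 1.74 and 3.14 (adjusted p = 0.0386 and 0.0495), and neither was called without CD27+CD69- replicate 3 (adjusted p = 0.169 and 0.172) or with the 2 populations fitted alone (adjusted p = 0.0913 and 0.0759). Of 21 immediate early genes 6 fell and 0 rose, with a median of -0.37. Under pan-leukocyte scaling this turned, with 3 higher, 2 lower and a median of 0.12. Dusp2, a nuclear phosphatase gene, had 827 to 1075 CPM against 212 to 775 CPM (-1.12, SE 0.20), and Ier5, a serum-inducible gene, fell by 0.97 (SE 0.17). Ier2 and Jund fell by 0.70 and 0.82 and were not called under pan-leukocyte scaling (adjusted p = 0.213 and 0.189).

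The same gates were then set side by side in CD69+ cells, which share no library with the CD69- cells. There, 104 genes were higher in CD27+ cells (0.987%) and 96 were lower (0.911%). Of these, 85 were also higher among CD69- cells, 81.7% of the CD69+ list and 10.8% of the CD69- list, and 82 were also lower, 85.4% and 15.8%. Ero1lb and Rhoh, the first an oxidoreductase gene and the second a GTPase gene of T cell signalling, were the 2 genes called in opposite directions. Ero1lb had 20.2 to 42.0 and 10.7 to 23.7 CPM in CD11b+ and CD27+ cells without CD69, and 4.97 to 11.7 and 16.3 to 38.3 CPM with CD69. Rhoh differed by -0.49 without CD69 and by 0.60 with it. Among CD69- cells neither was called without CD27+CD69- replicate 6 (adjusted p = 0.0736 and 0.0947), among other libraries, or under pan-leukocyte scaling (adjusted p = 0.227 and 0.969). The test of the difference between both differences called 61 genes (0.579%), 36 higher and 25 lower, of which 48 had 10 CPM or more in CD69+ cells. Of the 1135 genes called among CD69- and not among CD69+ cells, 51 passed that test, so for the rest a difference from CD69+ cells was not shown.

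**Figure D5:**
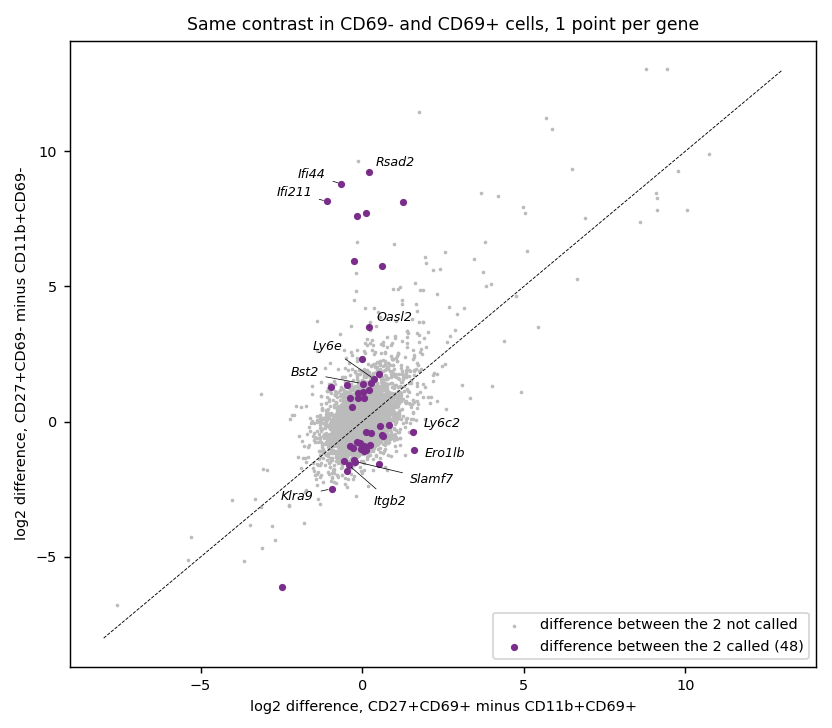
The log2 difference between CD27+ and CD11b+ cells without CD69 (vertical axis) against that with CD69 (horizontal axis) for the 8092 genes at 10 CPM or more in CD69+ libraries, with a dashed line of equality and 48 genes whose differences differed marked in purple. Ifi44, Rsad2 and Ifi211 lie high on the vertical axis and near 0 on the horizontal axis, and Ly6c2 and Ero1lb lie to the right of the line.

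Interferon genes made up 6 of the 61, among them Ifi44, Ifi211, Rsad2, Bst2 and Oasl2 (adjusted p = 1.4e-05, 1.4e-05, 0.0153, 0.0153 and 0.0331). Slamf7 was lower in CD27+ cells without CD69 (-1.48) and not called with CD69 (-0.21), and the difference of -1.27 was itself called (adjusted p = 0.0118). Klra9 differed by -2.48 without CD69 and by -0.95 with it (difference -1.53, adjusted p = 0.0118), and Itgb2 by -1.61 and -0.42 (difference -1.19, adjusted p = 0.0372). Ly6c2 was not called without CD69, while with CD69 it had 417 to 581 CPM in CD11b+ and 301 to 1926 CPM in CD27+ cells (difference -1.95, adjusted p = 0.0333). For Gzmb, Ccl4 and Emb no such difference was called: Gzmb was -3.13 and -2.28 (adjusted p = 0.467), Ccl4 was -3.15 and -3.15 (adjusted p = 1) and Emb was 2.74 and 1.98 (adjusted p = 0.3). The count of 61 rested on few libraries: it fell to 17, 21 and 18 when replicate 2, 3 or 4 was left out of all 4 populations, and it was 19 without the 3 libraries richest in fibroblast RNA.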

How the data were processed

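RNA was sequenced from 24 libraries of 4 NK populations, made per the labels' protocols with SMART-Seq v4 and Nextera XT. The deposited table holds raw read counts per gene, made by the authors with HTSeq and Picard on GRCm38, per the submitters' processing notes; no source used here gives the aligner or the strand setting. Of 53471 entries, genes without a symbol of their own took 0.308% of counts. Counts were fitted with edgeR 4.0.16 (R 4.3.3): filterByExpr with a minimum count of 10, TMM factors of 0.958 to 1.06, 1 mean per population over all 24 libraries, robust quasi-likelihood, and Benjamini-Hochberg adjustment over 10536 genes with a threshold of 0.05. Totals ran from 1213914 to 2671533 counts. Standard errors are the log2 difference divided by the square root of F. The procedure was tested on simulated data. Replicate pairs of a population all differed by more than sampling noise (chi-square per degree of freedom 10.3 to 32.3 over 60 pairs).

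Genes named are the sort markers, Cd69 and Flt3l, the 12 largest rises and falls at 10 CPM or more in CD69+ libraries and the 6 below it (called, a mean of at least 10 CPM over the libraries compared, counts in at least 5 of the 6 libraries of the higher population, and at least 5 libraries past the other population's median; clone-named genes and pseudogenes left out), up to 4 members of each of 31 lists by smallest p, and up to 4 genes each way of the interaction. Another 15 genes with statistics, and members named only by their level, were chosen after their values were seen. Members, lists and tests were chosen with earlier results of these data known. Alternatives were DESeq2 1.42.0, limma-voom (limma 3.58.1), other filters, scalings and level limits, a replicate block, a fibroblast covariate and leaving out libraries. Positions and overlaps are from GENCODE for GRCm38; 36 of 141 named genes share exon sequence with another gene, and with the strand setting unknown their reads cannot be told apart.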

Additional observations from a re-analysis of the deposited data

Results flagged for a closer look

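Within the 6 CD27+CD69- libraries, 1 library lay far from the other 5 for 8 of the summed marker lists, by a gap test (Dixon's) that chance passes in about 1 in 20 groups. Replicate 6 had the highest melanoma sum (11566 CPM) and macrophage sum (468 CPM) and the lowest pan-leukocyte sum (15315 CPM), and the lowest sum of transcription factors of NK maturation was 2341 CPM. Replicate 1 had the highest immediate early sum (18894 CPM) and keratinocyte sum (37.5 CPM) and the lowest ribosomal sum (8278 CPM). Replicate 5 had the highest endothelial sum (517 CPM).

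For 18 named genes the difference between CD27+ and CD11b+ cells was not the same with and without CD69, by the test of that difference. On the log2 scale it was larger without CD69 for Ly6e (1.19), Bst2 (1.4) and Oasl2 (3.29). Fitted values of 9.43 for Ifi44, 9.04 for Rsad2, 9.23 for Ifi211, 13.45 for Lama4, 13.17 for S100a16, 12.78 for Adgrd1 and 12.65 for Anxa3 depend on the prior count, since most CD11b+CD69- libraries were at 0, and are not sizes. Anxa3 was 7.32 among CD69- cells alone, so its 12.65 also rests on the CD69+ cells. Lama4, S100a16, Adgrd1 and Anxa3 were picked by the largest positive values of this test among genes with a mean of 10 CPM. The part of fibroblast RNA in them was not tested. The difference was lower without CD69 for Nkg7 (-0.52), Rhoh (-1.09), Itgb2 (-1.19), Slamf7 (-1.27), Klra9 (-1.53), Ly6c2 (-1.95), Gatsl3 (-2.07) and Ero1lb (-2.63).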

How the results depend on the processing

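Of 123 named genes called, 92 kept direction and call in every alternative that tested them other than the fibroblast covariate, which left 8 genes called (8 higher, 0 lower, also at 10 CPM or more in CD69+ libraries) and turned the sign of Serping1 (-1.55), Col3a1 (-4.24), Rhpn1 (1.08), Il12rb2 (0.17), Tyms (-0.35), Adgrd1 (-4.82) and Thy1 (-0.0665). Rises numbered 1340 with DESeq2, 1480 with no filter on low counts (more genes tested) and 488 with the 2 populations fitted alone. Pan-leukocyte library sizes gave 3102 calls (2953 higher, 149 lower), and 2694 (2554 and 140) at 10 CPM or more. Without the 3 libraries richest in fibroblast RNA, 320 genes fell, and 595 were called at 10 CPM or more (281 and 314). Leaving out 1 library at a time gave 1053 to 1483 calls (641 to 912 higher, 412 to 593 lower) and 783 to 1147 at 10 CPM or more (388 to 568 and 395 to 579). The difference between CD69- and CD69+ differences called 213 genes with DESeq2 (144 and 69), 130 with pan-leukocyte sizes (127 and 3), 19 without the 3 libraries (11 and 8), 11 lower with no filter, and 17 to 51 without 1 replicate number (13 to 28 and 3 to 23). The cause of these changes was not tested. The 2 alternatives that left out the 3 libraries or scaled to pan-leukocyte genes were chosen after seeing the data. TMM calls were 60.3% higher, total-count calls 71.3% and DESeq2 calls 69.6%.

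Whether replicate numbers pair the samples was not settled. Same-numbered libraries correlated at -0.05 to 0.01 over 8286 genes, and 0 of 6 correlated best with its own number. Since replicates of a population differed by more than sampling noise, such low correlations cannot exclude that same-numbered libraries share a mouse. A replicate block gave 752 rises and 523 falls, 478 and 510 at 10 CPM or more, and 65 differences between differences (35 and 30). With it Id3 was not called (3.08, adjusted p = 0.0681). Depth limits genes under about 2.47 CPM per library.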

Other observations

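Antigen presentation and antibody genes were low and rose in part. H2-Ab1, a class II beta chain gene, had 0 to 12.6 CPM in CD11b+CD69- and 12.7 to 118 CPM in CD27+CD69- cells (3.28, adjusted p = 0.0306), while H2-Aa and H2-Eb1 were not called (adjusted p = 0.347 and 0.262), and Flt3 and Xcr1 had medians of 0 in both populations. Of 6 tested dendritic cell genes 1 rose. Ighm, the IgM heavy chain gene, had 60.7 to 257 CPM and 263 to 636 CPM (1.2, SE 0.23, adjusted p = 0.000602), with Ms4a1, Pax5 and Igkc at 0 counts in all 12 libraries. The B cell list gene Ebf1, which was not tested, had 0 counts in CD11b+CD69- and 2.14 to 45.1 CPM (median 20.8) in all 6 CD27+CD69- libraries. Of 4 tested macrophage genes 2 rose, Ctss, a lysosomal protease gene (0.64, adjusted p = 0.00234), and Apoe, a lipid carrier gene (4.08, adjusted p = 0.0221), and the calls of H2-Ab1 and Apoe were lost without CD27+CD69- replicate 6 (2.72, adjusted p = 0.108, and 2.84, adjusted p = 0.183). The macrophage gene Lyz2 had 0 to 20.5 and 0 to 5.01 CPM.

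Few genes of the remaining cell types passed the count filter and could be tested. Untested genes were not all low. Dct and Tyrp1 of the melanoma list reached 2092 and 1740 CPM in CD27+CD69- libraries, with medians of 14.8 and 4.93 CPM. The 1 tested melanoma gene, Gpnmb, rose (7.93, adjusted p = 0.00822), with 6.64 without CD27+CD69- replicate 6 and no call by limma-voom (adjusted p = 0.466). Both tested keratinocyte list genes, Epcam and Cdh1, rose from 0 counts to at most 14.8 and 14.3 CPM (adjusted p = 0.0224 and 0.0249), with Krt5 and Krt14 at 0. Neither was called by limma-voom (adjusted p = 0.162 and 0.223). Pecam1 (endothelium, 0.54), Mcam (pericyte, -0.76) and Cpa3 (mast cell, -1.24) were not called (adjusted p = 0.246, 0.668 and 0.537), although pan-leukocyte scaling called Pecam1 higher (1.04, adjusted p = 0.00765). No gene of the neutrophil list was tested, and its sum was at most 9.14 CPM.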
